A study of Mus musculus with 8 samples.

Results

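Nuclear long noncoding RNAs are transcripts that do not serve as templates for protein and that stay largely in the nucleus. They were followed here in single neurons of the mouse stellate ganglion, the sympathetic ganglion that supplies the heart and the front paws. The set was a given list of 9 genes, and 8 of them had a column among the 19224 genes of the neuron table. These were Malat1, Meg3, Mirg, Snhg11, Miat, Neat1, Kcnq1ot1 and Gm26870, while Rian was not analysed here. The list was drawn up with results of these neurons in view, and the subtypes were clustered from the same cells, so the levels by subtype are a description without a test.

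The neurons came from stellate ganglia of male C57BL/6J mice aged 8 to 10 weeks, which had received AAV-GFP in the heart and AAV-tdTomato in the front paws, so that no untreated group was compared. There was 1 condition, and the mouse was the replicate. Of the neurons, 1002 carried a mouse name that matched 1 sample (replicates 1 to 5, with 165 to 235 neurons and 916296 to 1196621 UMIs each), and 301 carried 1 of 3 names that could not be matched and were used only pooled. By the batch number in their names, replicates 1 to 5 were all of batch 2, and the other samples were of batch 1. Left and right ganglia had been combined. The authors had placed the neurons in subtypes that they name noradrenergic (NA1a, NA1b, NA1c, NA2 and NA3), cholinergic (Ach1 and Ach2) and glutamatergic (Glut). A level is given as UMIs per 10000 UMIs of a neuron, averaged over the neurons of a mouse and then over mice, for each mouse and subtype with at least 10 neurons. Dbh and Th, enzymes of noradrenaline synthesis, averaged 10.7 ± 1.69 and 8.47 ± 1.67 in NA2 and 10.96 ± 2.51 and 5.95 ± 0.793 in NA1c (SD, n = 5 mice).

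Malat1 is a component of nuclear speckles, the compartments where splicing factors gather, and Neat1 is the scaffold of paraspeckles, which hold RNA-binding proteins and retained RNAs. Meg3, Rian and Mirg lie one after another in the Dlk1-Dio3 imprinted domain and are expressed from the maternal chromosome, and Kcnq1ot1 is a paternally expressed antisense transcript that silences neighbouring genes of the Kcnq1 domain. Miat and Snhg11 are expressed mainly in neural tissue, and Snhg11 hosts small nucleolar RNAs. Gm26870 is a predicted transcript with no established function.

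In GENCODE on GRCm38, Meg3 lay at chr12:109541001-109571726 on the plus strand and Mirg at chr12:109729764-109749460 on the same strand, with Rian at chr12:109603940-109661716 between them. Malat1 (chr19:5795690-5802672) and Neat1 (chr19:5824708-5845478) were neighbours on the minus strand. Kcnq1ot1 (chr7:143203458-143296549, minus strand) fell inside the span of the protein coding gene Kcnq1 (chr7:143106362-143427042, plus strand). Snhg11 lay at chr2:158375638-158386145 (plus strand), Miat at chr5:112213228-112229395 (minus strand) and Gm26870 at chr9:3000282-3038313 (minus strand). GENCODE types Snhg11 as protein coding and Kcnq1ot1 as antisense, and the other members measured here as lincRNA.

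Sequences are shown for the members whose levels parted from the rest in the results that follow. The first of 2 promoters of Meg3 (RefSeq, GRCm38.p6, chr12:109540746-109541045, plus strand) is shown because Meg3 and Mirg differed in opposite directions between subtypes, and its capitals mark TGACGTCA, the palindromic cyclic AMP response element. These letters stood in 1.79% of 32851 promoters of the same length, searched on both strands, and were not found in the promoters of Mirg or Malat1. The Mirg promoter searched (chr12:109734731-109735030) lies inside the GENCODE span of Mirg, downstream of its start. It may therefore not be the start of the transcript counted, and the part of promoters in the opposite directions was not tested.
Meg3 promoter: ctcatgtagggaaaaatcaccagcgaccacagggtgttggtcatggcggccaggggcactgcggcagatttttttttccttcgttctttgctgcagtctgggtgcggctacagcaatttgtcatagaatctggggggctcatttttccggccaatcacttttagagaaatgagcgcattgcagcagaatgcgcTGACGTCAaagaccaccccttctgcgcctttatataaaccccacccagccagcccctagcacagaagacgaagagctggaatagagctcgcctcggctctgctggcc

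Mirg spans 14 annotated miRNA hairpins on its strand, against 1 in Meg3 and 3 in Rian. Among its 26 mature miRNAs, one pair shared a seed (bases 2 to 8, in capitals), and the pair is shown because it gives the products by which this transcript is known. The miRNAs themselves were not measured by the assay. The first lies at chr12:109735669-109735692 and the second at chr12:109739132-109739152, both on the plus strand.
mmu-miR-453: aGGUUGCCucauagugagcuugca
mmu-miR-496a-5p: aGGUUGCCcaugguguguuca

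Gm26870 is shown because it went against Malat1 and Snhg11 with depth and against all the other members with mitochondrial share. Its longest GENCODE transcript has 1170 bases and repeats with a period of 234 bases, at which 81.5% of positions were identical, against a median of 30.6% over the other periods tried. The first 234 bases are given with every GAAAA in capitals, a short run found 59 times along the transcript.
Gm26870, bases 1 to 234: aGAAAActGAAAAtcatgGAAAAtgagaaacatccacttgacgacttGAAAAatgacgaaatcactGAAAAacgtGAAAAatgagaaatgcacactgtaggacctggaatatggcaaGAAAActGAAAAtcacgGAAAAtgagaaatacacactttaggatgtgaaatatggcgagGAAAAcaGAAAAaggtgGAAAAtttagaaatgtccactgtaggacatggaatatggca
The transcripts of 12 other genes held 31-base stretches of Gm26870 on the opposite strand, and none held one on the same strand. Of these genes 10 had a column, and the highest of them, Gm10800, had 115 UMIs in the 1002 neurons, against 2393 for Gm26870. Reads of such repeats may be placed at several copies, so the level of Gm26870 is uncertain.

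Before the levels are given, one property of the libraries bears on NA2, Ach2 and Glut. In the 5 matched mice, 21 cell barcodes occurred in 2 to 5 libraries each and marked 73 neurons. Of these neurons 55 were in NA2 (36.7% of that subtype), 15 in Ach2 (32.6%) and 3 in Glut (17.6%), and none was in the other 5 subtypes. For 20 of the 21 barcodes the subtype was the same in every library. Levels in NA2 and Ach2 that moved by over 1.5 times without these neurons are named, as are the sums with and without them.

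All 8 RNAs were lower in NA2 than in NA1c, a subtype of similar depth, in each of the 5 mice and by a mean of at least 1 on the log2 scale. NA2 had a median of 2341.5 UMIs per neuron and NA1c 2778.5. The same rule (a mean log2 difference of at least 1, with one direction in every mouse) was met in that direction by 25.6% of 3712 genes, and by 21.4% in the opposite direction, and the median difference of all genes was 0.0065. The 8 RNAs together made up 98.1 ± 27.5 UMIs per 10000 in NA2 (n = 5 mice) and 1397 ± 189 in NA1c. Without the shared barcodes the sum was 101 ± 50.1 in NA2 (n = 4 mice), so that the low level was found also in neurons whose barcode stood in 1 library. In these neurons Malat1 was 74.8 ± 40.9, Meg3 14.8 ± 7.19, Snhg11 6.57 ± 3.49 and Kcnq1ot1 0.697 ± 0.395, while Gm26870 was 4.06 ± 0.819 in place of 2.59 ± 0.963, Miat 0.369 ± 0.205 in place of 0.182 ± 0.146 and Neat1 0.109 ± 0.1 in place of 0.198 ± 0.23. Mirg was 0.065 ± 0.077 in place of 0.042 ± 0.06. All 8 were lower than in NA1c in 4 of 4 mice, by -1.50 for Gm26870 to -5.12 for Meg3.

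**Figure D1:**
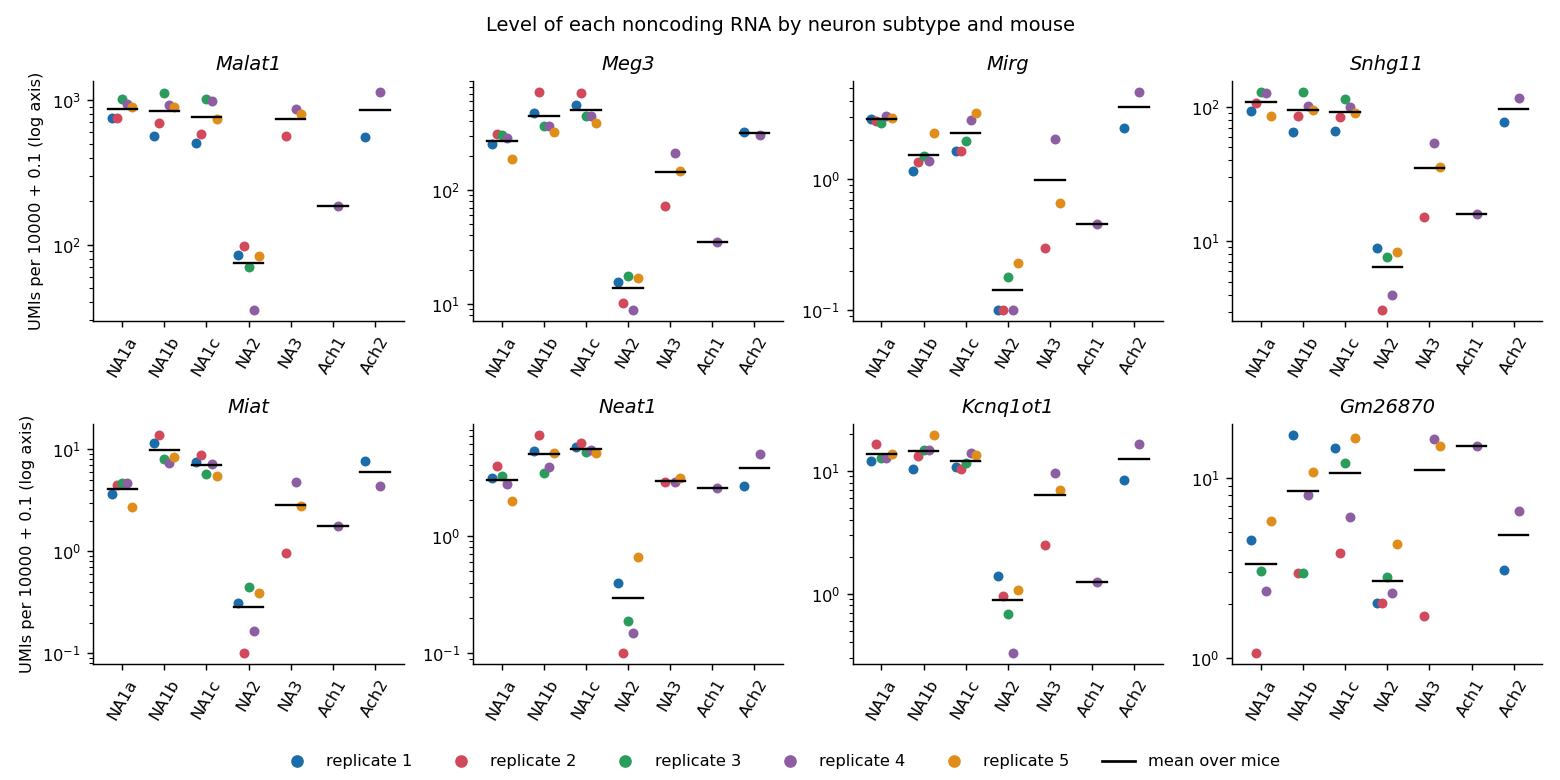
Mean level of each noncoding RNA (UMIs per 10000 plus 0.1, log axis) by neuron subtype, with 1 point per mouse with at least 10 neurons and a line at the mean over mice. Apart from Gm26870, the points of NA2 sit below all those of NA1a, NA1b and NA1c, and the points of Gm26870 overlap between NA2 and NA1a.

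Malat1 in NA2 was 84.3, 98.4, 70.1, 35.1 and 83.3 UMIs per 10000 in replicates 1 to 5. In NA1c it was 502, 584, 1009, 981 and 738. The groups did not overlap, and the mean log2 difference over mice was -3.39 ± 0.95 (SD, n = 5 mice). Here and below, a lack of overlap is given without the share of all genes that showed it, and is a description only.

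Meg3 was 15.5, 10.1, 17.7, 8.72 and 16.7 in NA2, and 556, 704, 442, 444 and 386 in NA1c, a difference of -5.22 ± 0.68 on the log2 scale. Mirg, 1 of its neighbours in the imprinted domain, had 7 UMIs in all 150 NA2 neurons and was at 0 in replicates 1, 2 and 4, against 1.55, 1.56, 1.86, 2.73 and 3.12 in NA1c. At such counts its log2 difference of -4.03 depends on the 0.1 added to each mean and is no bound.

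Snhg11 was 91.3 ± 18.2 in NA1c and 6.29 ± 2.68 in NA2 (log2 difference -3.94), and Kcnq1ot1 was 11.9 ± 1.62 and 0.781 ± 0.399 (-3.91). Miat was 6.82 ± 1.31 in NA1c and 0.182 ± 0.146 in NA2, and Neat1 5.38 ± 0.431 and 0.198 ± 0.23. In all 4 the mice of one subtype did not overlap those of the other. Gm26870 differed least, with 10.6 ± 5.51 in NA1c and 2.59 ± 0.963 in NA2 (log2 difference -1.85 ± 0.73), and its mice overlapped. It varied between mice within every subtype, and over all neurons of a mouse it was 9.30, 2.65, 3.81, 7.53 and 12.1 in replicates 1 to 5. Against NA1a, 7 of 8 members were lower in NA2 in 5 of 5 mice, by -3.62 to -4.43 (21.8% of 3681 genes met the rule downwards and 443 genes upwards), and Gm26870 was lower in 4 of 5 mice by a mean of -0.16. This direction turned without the shared barcodes, where Gm26870 was higher in NA2 in 3 of 4 mice by 0.15, and without replicate 1 (0.09). The 7 others were lower in 4 of 4 mice without the shared barcodes, by -3.16 to -4.28.

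The difference was found also after every neuron had been thinned to 2000 UMIs (shallower neurons left out), where the log2 differences between NA2 and NA1c ran from -2.60 for Gm26870 to -4.97 for Meg3 in 4 mice. Thinning also allowed the shares of neurons with a UMI to be compared. Miat was found in 4.01% of NA2 neurons and 72.2% of NA1c neurons, Neat1 in 3.20% and 47.6%, and Kcnq1ot1 in 9.50% and 83.0%, while unthinned shares were 8.77% and 83.1%, 8.65% and 59.8%, and 22.7% and 90.2%. Malat1, found in nearly every neuron, had a UMI in 92.6% of thinned NA2 neurons.

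Other nuclear RNA genes were counted in the same contrast. Of 20 genes of nuclear speckles and splicing that could be tested, 9 were lower in NA2 than in NA1c by this rule and none was higher, with a median of -1.04. Of 9 genes for paraspeckle proteins 4 were lower (median -1.10), and of 8 long neuronal genes 5 were lower (median -1.26). In the opposite direction, 64 of 79 genes for cytosolic ribosomal proteins (median 1.43) and 7 of 13 mitochondrially encoded genes (median 1.16) were higher in NA2. The median mitochondrial share was 6.21% in NA2 and 3.38% in NA1c, and its part in the difference was not tested. Of 6 tested markers of satellite glia 2 were lower in NA2 and none was higher.

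The low sum in NA2 was shared by nearly all of its neurons. In 140 of 150 NA2 neurons (93.3%) the 8 RNAs summed to less than 200 UMIs per 10000, a limit set after the values were seen, against 4 of 182 in NA1a (2.20%), 7 of 237 in NA1b (2.95%), 2 of 216 in NA1c (0.926%) and 0 of 92 in NA3, which allows a share of up to 3.26%. Within NA2, 53 of 55 neurons with a shared barcode and 87 of 95 others lay under the limit, with medians of 75.01 and 36.3.

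The neurons of Ach2 lay in 2 ranges that followed the barcodes. All 15 of its neurons with a shared barcode summed to 57.2 to 145 UMIs per 10000, and all 31 others to 489 or more. Their median Malat1 levels were 90.6 and 1037, and their median depths 2149 and 5436 UMIs. In the 2 mice with at least 10 Ach2 neurons the sum was 981 and 1594, and without the shared barcodes 1243 and 2050. In Glut, with 17 neurons and in no mouse 10, 16 neurons (94.1%) lay under 200, and the 3 with a shared barcode were among them.

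**Figure D2:**
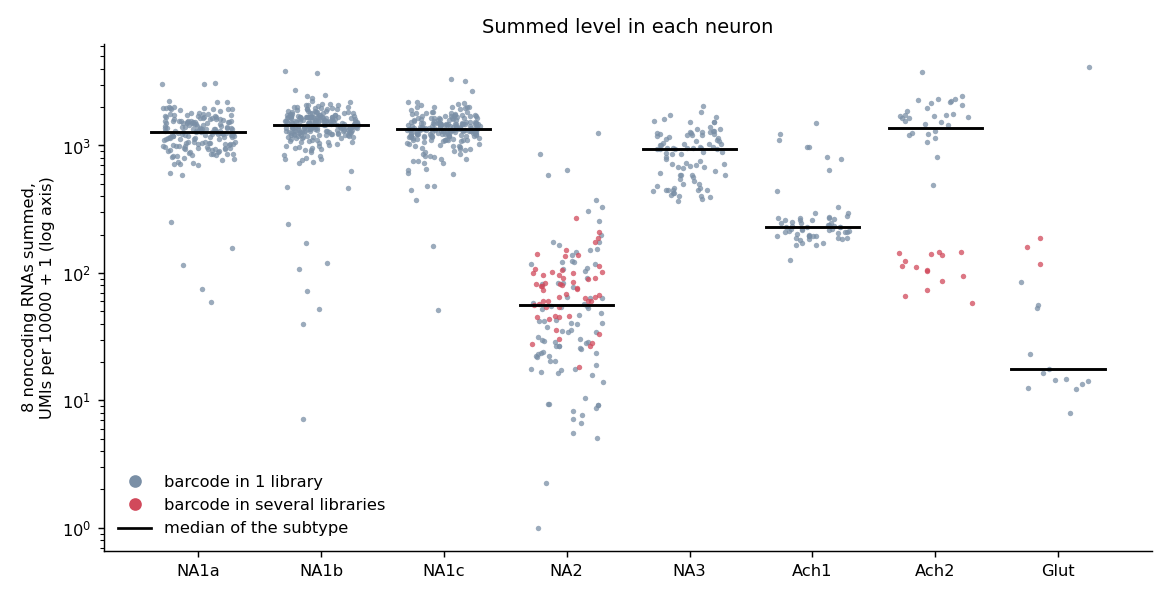
Summed level of the 8 noncoding RNAs in each of 1002 neurons (UMIs per 10000 plus 1, log axis) by subtype, coloured by whether the cell barcode occurred in 1 library or in several. The medians of NA1a, NA1b, NA1c, NA3 and Ach2 lie well above those of NA2 and Glut, and the coloured neurons of Ach2 lie apart from the rest of that subtype.

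Ach1 came almost wholly from 1 animal, since 55 of its 62 neurons were from replicate 4. In that mouse the sum was 257, with Malat1 at 185 and Meg3 at 35.03, below the means of NA1a, NA1b and NA1c in every mouse, and Gm26870 was at 14.99. Apoe, a marker of satellite glia, was at 82.1 in the same neurons and at 4.42 ± 0.688 in NA1a. With 1 mouse there is no replicate check, and the part of glial RNA in these levels was not tested.

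Among the larger noradrenergic subtypes, Meg3 and Mirg of the same imprinted domain differed in opposite directions. Meg3 in NA1a was 250.4, 306, 303, 287 and 185 in replicates 1 to 5, and 471, 722, 360.2, 362 and 322 in NA1b. NA1a was lower in every mouse and the mice did not overlap, with a log2 difference of -0.71 ± 0.41. Mirg was 2.80, 2.70, 2.58, 2.95 and 2.84 in NA1a, and 1.07, 1.25, 1.41, 1.29 and 2.15 in NA1b. NA1a was higher in every mouse, again without overlap, by 0.94 ± 0.36 on the log2 scale. Neither Meg3 nor Mirg reached the mean log2 difference of 1 that the rule asks for. When UMIs were summed over neurons in place of averaging their levels, NA1a was higher in 4 of 5 mice by 0.55 ± 0.34. When the neurons of each mouse and subtype were split at their median depth, Mirg in the deeper neurons was 2.28 in NA1a and 1.97 in NA1b. In the shallower neurons it was 3.28 and 0.908.

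The depth of these subtypes differed, the median neuron holding 8181.5 UMIs in NA1a, 3338 in NA1b and 2778.5 in NA1c. After thinning to 2000 UMIs the difference of Meg3 was -0.69. Thinned Mirg was 3.33, 4.00, 2.60, 2.50 and 4.32 in NA1a and 1.296, 1.301, 1.17, 0 and 2.30 in NA1b, and Mirg had a UMI in 44.4% of NA1a and 18.2% of NA1b neurons (80.1% and 47.5% unthinned). With NA1c in place of NA1b, Meg3 was again lower in NA1a in 5 of 5 mice (-0.92 ± 0.31), whereas Mirg was higher in 4 of 5 (0.40 ± 0.41), which is within the spread between mice. The coding genes Dlk1, Rtl1 and Dio3 of the domain were below the filter of 0.5 UMIs per 10000. The other coding gene listed for it, Begain, was 0.783 ± 0.173 in NA1a, 0.649 ± 0.439 in NA1b and 1.84 ± 0.949 in NA1c (n = 5 mice). Begain met the rule as lower in NA1b (-1.49) and in NA2 (-2.66) than in NA1c. It did not meet it between NA1a and NA1b (0.48) or NA1a and NA1c (-1.01).

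Miat and Neat1 were lower in NA1a than in both NA1b and NA1c. Miat was 3.50, 4.399, 4.54, 4.61 and 2.60 in NA1a and 11.3, 13.6, 8.00, 7.29 and 8.20 in NA1b, a log2 difference of -1.27 ± 0.50. Neat1 was 2.90 ± 0.699 in NA1a, 4.86 ± 1.46 in NA1b and 5.38 ± 0.431 in NA1c (n = 5 mice). Its difference was -0.71 from NA1b and -0.90 from NA1c, lower in NA1a in 5 of 5 mice each time. Miat was the only member lower in NA1a than in NA1b in every mouse with a mean log2 difference of at least 1, a rule met by 1.51% of 3899 genes downwards and 2.03% upwards. Gm26870 was the only one lower than in NA1c by that rule (-1.69 ± 0.25), which 1.83% of 3935 genes met downwards and 2.95% upwards. Between NA1b and NA1c no member met it (0.834% of 3959 genes higher in NA1b and 1.49% lower), though Mirg was lower in NA1b in 5 of 5 mice (-0.55) and Miat higher in 5 of 5 (0.48).

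Malat1, Snhg11 and Kcnq1ot1 overlapped between mice of NA1a, NA1b and NA1c, and none differed in one direction in all 5 mice. Malat1 was 872 ± 118, 838 ± 215 and 763 ± 228, Snhg11 was 108 ± 19.2, 95.1 ± 23.5 and 91.3 ± 18.2, and Kcnq1ot1 was 13.5 ± 1.77, 14.4 ± 3.34 and 11.9 ± 1.62. The largest mean log2 difference among these was 0.25. In the order of mean levels over the 6 subtypes with at least 2 mice, NA2 came last for all 8 members, and NA3 came just above it for all but Gm26870, for which NA3 came first. Without the shared barcodes Gm26870 in NA2 (4.06, 4 mice) stood above NA1a (3.24, 5 mice).

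NA3 was measured in 3 mice (replicates 2, 4 and 5), where an exact sign-flip test over mice could not give a p below 0.25. Relative to NA1a of the same mice, Snhg11 was lower in all 3 (14.99, 54.2 and 35.6 against 107, 126 and 85.7), as were Kcnq1ot1 and Mirg, each by at least 1 log2 on average. Without replicate 2 the difference of Kcnq1ot1 was -0.70. That rule was met by 12.6% of 4076 genes downwards and 9.76% upwards, and the median of all genes was -0.24. Gm26870 was higher in NA3 in 3 of 3 mice (1.61, 16.4 and 14.9 against 0.958, 2.26 and 5.68). Malat1 and Neat1 differed by -0.24 and 0.08, at or above the median of all genes. Markers of satellite glia summed to 320 ± 115 UMIs per 10000 in NA3 and 10.2 ± 1.25 in NA1a, with 10 of 10 tested markers higher, and their part in the NA3 levels was not tested.

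To ask how the RNAs related to recovered UMIs, the neurons of each mouse and subtype were split at their median depth into a deeper and a shallower set that held the same subtypes. The median depth per mouse ran from 1935 to 2848 UMIs in the shallower sets and from 3512.5 to 8960 in the deeper sets. Malat1 and Snhg11 took a larger share of the UMIs of deep neurons, and Gm26870 a smaller one. These 3 of 8 members passed limma at an adjusted p under 0.05 over 3907 genes, of which 0.512% passed (0.333% upwards and 0.179% downwards). Without the mouse as a block, or without the filter on low genes, 0 of 8 members passed.

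Malat1 was 563, 652, 812, 659.8 and 876 in the deeper sets and 472, 568, 621, 506 and 609.9 in the shallower sets of replicates 1 to 5. It was higher in the deeper set of every mouse, by 0.35 on the log2 scale (SE 0.08, limma adjusted p = 0.0353). Snhg11 was 78.6 against 62.5 on average, higher in 5 of 5 mice by 0.34 (SE 0.08, adjusted p = 0.0326, limma). UMIs of Malat1 count towards the depth itself, and when depth was taken from the UMIs of other genes Malat1 differed by 0.25 and Snhg11 by 0.30, and neither passed. Both calls were also lost without replicate 1, 2 or 4 (Malat1 0.37, 0.39 and 0.34, Snhg11 0.33, 0.36 and 0.36), that of Snhg11 without replicate 5 (0.27), and both without the shared barcodes (0.30 and 0.29). With UMIs summed over neurons Snhg11 differed by 0.17 (4 of 5 mice) and Malat1 by 0.25, and within NA1a alone by 0.0089 (3 of 5 mice) and 0.20 (4 of 5), and none of these passed.

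Gm26870 was 7.60, 2.64, 1.78, 4.36 and 5.17 in the deeper sets and 11.3, 2.70, 6.03, 10.8 and 19.3 in the shallower sets. It was lower in the deeper set of every mouse, barely so in replicate 2, and the mean difference was -1.09 (SE 0.14, limma adjusted p = 8.56e-07). The SD of this difference over mice was 0.78, and the limma SE is drawn towards the spread of other genes. An exact sign-flip test over the 5 mice gave p = 0.0625 for Gm26870, Malat1 and Snhg11, two-sided, the smallest that 5 mice allow. Gm26870 was also called within NA1a alone (-1.64) and NA1b alone (-1.74), though not within NA1c (-1.23) or NA2 alone (-1.66), and without each mouse, by -0.90 to -1.36. Gm42418, a predicted noncoding RNA from the list of other long noncoding RNAs and the gene most like Gm26870 across subtypes, was 112 in deep and 255 in shallow neurons (-0.83, lower in 5 of 5 mice, limma adjusted p = 1.03e-07).

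Meg3 was 292 in deep and 335 in shallow neurons (-0.19, limma adjusted p = 0.404), lower in 4 of 5 mice. Neat1 differed by -0.27, Miat by -0.04, Mirg by 0.12 and Kcnq1ot1 by 0.12, and none of these passed. For Mirg this mean joined opposite directions. Mirg was higher in the deeper neurons within NA1b alone in 5 of 5 mice (1.05) and lower within NA1a alone in 5 of 5 (-0.51), and neither passed. No gene of the paraspeckle list (10 tested), the splicing list (20 tested) or the long neuronal list (9 tested) passed in either direction, and none of 79 ribosomal protein genes did. Their medians were -0.04, 0.04, 0.19 and 0.02, beside 0.01 for all genes. Of the 6 other long noncoding RNAs tested, 1 was lower, which was Gm42418. Of 8 tested markers of satellite glia 1 was higher in the deeper neurons, which was Apoe (27.0 against 20.7, 0.38, 5 of 5 mice, limma adjusted p = 0.0264), and its part in the differences of the members was not tested.

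**Figure D3:**
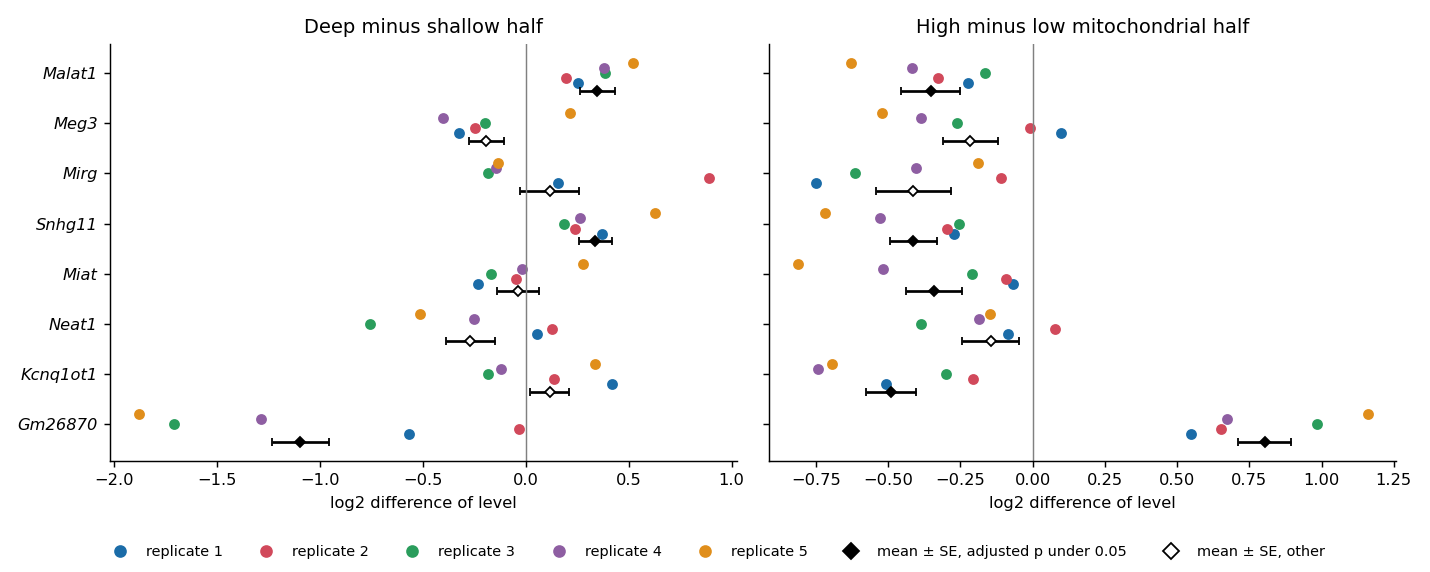
Difference of level (log2 scale) between deeper and shallower neurons and between neurons of high and low mitochondrial share, with 1 point per mouse and diamonds at the mean with the limma standard error, filled where the adjusted p was under 0.05. Gm26870 lies to the left with depth and to the right with mitochondrial share, and Malat1 and Snhg11 lie on the opposite sides.

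The same split was made at the median mitochondrial share, the percentage of UMIs from 13 mitochondrially encoded genes. Kcnq1ot1, Snhg11, Malat1 and Miat were lower in neurons of high mitochondrial share and Gm26870 was higher. These 5 of 8 members passed, beside 5.03% of 3900 genes (3.21% lower and 1.82% higher), and the median of all genes was -0.07. The genes that were higher include all 13 mitochondrially encoded genes, which define the split. The split of 71 genes higher and 125 lower became 98 and 54 when the members and the mitochondrial genes were left out of the total, and 63 and 596 on mean natural log values. Without the mouse as a block 0 of 8 members passed (13 genes did), and without the filter on low genes 1 did, which was Gm26870. The sets also differed in depth, with a median per mouse of 2336 to 4618 UMIs in the high and 3057.5 to 6207 in the low sets.

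Kcnq1ot1 was 7.35, 9.87, 7.71, 5.90 and 8.98 in the high sets and 10.5, 11.4, 9.50, 9.95 and 14.6 in the low sets of replicates 1 to 5. It was lower in every mouse, by -0.49 (SE 0.08, limma adjusted p = 0.00013). Snhg11 was 61.0 against 80.8 (-0.41, adjusted p = 0.00087, limma), Malat1 557 against 715 (-0.35, adjusted p = 0.0344, limma) and Miat 4.82 against 5.88 (-0.34, adjusted p = 0.0319, limma), each lower in 5 of 5 mice (exact sign-flip p = 0.0625 for each). Mirg was lower in 5 of 5 mice by the same size as Snhg11 (-0.41) but missed the threshold (limma adjusted p = 0.0512).

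Gm26870 was 11.2, 3.29, 5.15, 9.04 and 16.8 in the high sets and 7.63, 2.06, 2.55, 5.64 and 7.46 in the low sets. It was higher in every mouse, by 0.80 (SE 0.09, limma adjusted p = 7.07e-09). Meg3 (-0.22) and Neat1 (-0.15) did not pass. Malat1 lost its call without replicate 2, 4 or 5 (-0.36, -0.34 and -0.28) and Miat without replicate 3, 4 or 5 (-0.37, -0.30 and -0.22). When the sets were matched on depth, Gm26870 (0.60), Kcnq1ot1 (-0.39) and Snhg11 (-0.33) were still called, and Malat1 (-0.29) and Miat (-0.31) were not. The same 3 were called when the members and the mitochondrial genes were left out of the total (0.84, -0.45 and -0.37) and without the shared barcodes (0.81, -0.44 and -0.38).

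Srrm2, a speckle scaffold protein, was the 1 gene of 20 in the splicing list that passed (-0.28, lower in 4 of 5 mice, limma adjusted p = 0.036). Of the genes for paraspeckle proteins 1 of 10 was lower. Th differed by -0.10 and Snap25, a synaptic protein, by -0.13, while Dbh was 11.9 against 9.70 (0.29, higher in 4 of 5 mice, limma adjusted p = 0.0528), and none of the 3 passed. Of 8 tested markers of satellite glia 4 were higher in the high sets, among them Apoe (27.3 against 20.5, limma adjusted p = 0.0003), as were 2 of 3 markers of Schwann cells, and their part in the differences of the members was not tested.

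Correlations across single neurons are given as a description. Within each mouse, the Spearman correlation with UMIs per neuron averaged 0.39 ± 0.15 for Malat1, 0.37 ± 0.18 for Snhg11, 0.37 ± 0.15 for Mirg, 0.31 ± 0.19 for Kcnq1ot1 and 0.18 ± 0.12 for Neat1, positive in 5 of 5 mice. It was -0.28 ± 0.24 for Gm26870, negative in 5 of 5. When neurons were ranked within mouse and subtype, the means fell to 0.17 for Malat1, 0.21 for Snhg11 and 0.14 for Mirg, which were positive in every mouse, and to 0.11 for Kcnq1ot1 and 0.03 for Neat1, which were not. Meg3 moved from -0.01 ± 0.32 to -0.19 ± 0.21. For Neat1 the difference between deeper and shallower neurons had the opposite sign (-0.27), and Mirg was higher in the deeper set in 2 of 5 mice. Mirg had a UMI in 42.9% and Neat1 in 50.6% of the neurons. The correlation with depth was not repeated on thinned neurons, so the part of detection in it was not tested. These coefficients are over 165 to 235 neurons of a mouse, which share a library, and the level and the depth share the same total. The share of all genes that correlated with depth in every mouse is not given, so the counts of members have no background.

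With mitochondrial share, 7 members correlated negatively in 5 of 5 mice, from -0.24 for Neat1 to -0.55 for Snhg11, and within mouse and subtype 5 of them did so in every mouse (Malat1, Mirg, Snhg11, Neat1 and Kcnq1ot1). Gm26870 averaged 0.15 ± 0.15 and, within subtype, 0.18 ± 0.11, positive in 5 of 5. Mitochondrial UMIs count in the total of each level. With mitochondrial genes left out of the total, the 7 members were still negative in 5 of 5 mice, from -0.22 for Neat1 to -0.51 for Snhg11. No share over all genes is given beside these counts, so whether they are unusual is not known.

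**Figure D4:**
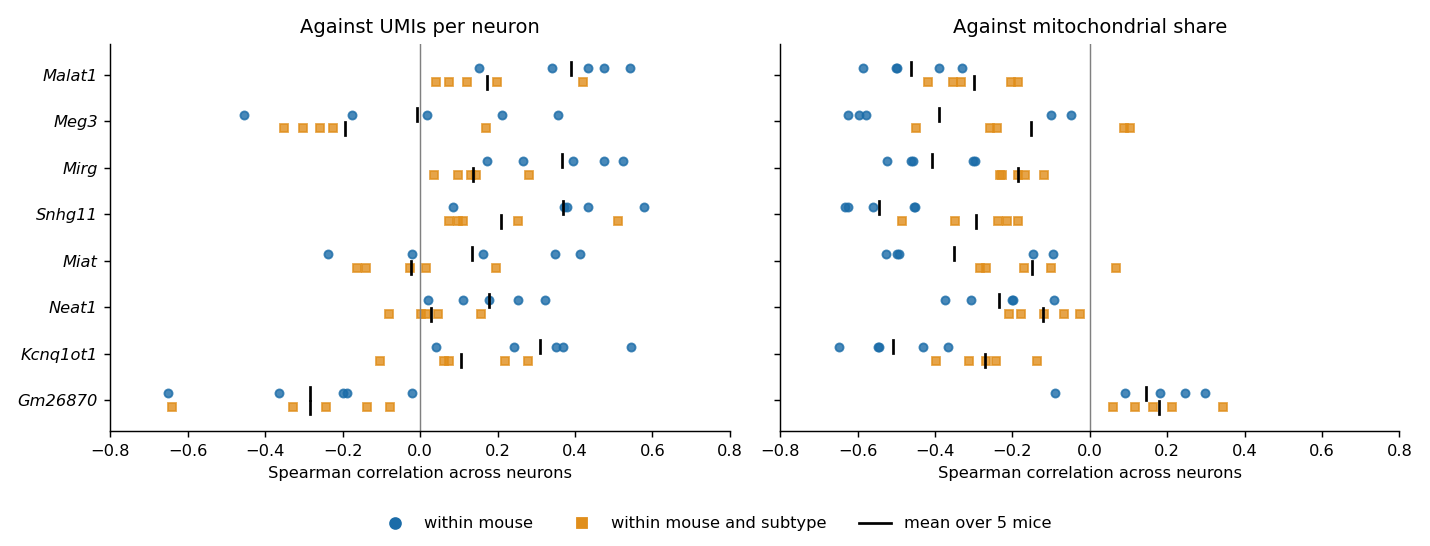
Spearman correlation across neurons of each noncoding RNA with UMIs per neuron and with mitochondrial share, 1 point per mouse, ranked within mouse (circles) or within mouse and subtype (squares), with a line at the mean over 5 mice. The squares lie nearer to 0 than the circles for most genes, and the means of Gm26870 lie on the other side of 0 from those of Malat1 and Snhg11 in both panels.

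The members were also set against each other within mouse and subtype. Of 28 pairs, 14 were positive in 5 of 5 mice, led by Malat1 with Snhg11 (0.38 ± 0.21; 4 of 5 mice once neurons were thinned) and Meg3 with Miat (0.34 ± 0.13). Meg3 and Mirg, though of one domain, averaged 0.06 ± 0.15 and were positive in 3 of 5 mice. Malat1 and Neat1, neighbours on chromosome 19, averaged -0.07 ± 0.06, negative in 5 of 5. Gm26870 with Snhg11 was the lowest pair (-0.17 ± 0.13). The correlations are weak and the counts of Mirg and Neat1 sparse, so these are values only. No share over pairs of other genes is given beside the 14 of 28.

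Over 26 profiles of mouse and subtype, the genes most like each member among 5493 were found by Pearson correlation of log2 levels, after the mean of each mouse had been subtracted. Meg3 was most like Nktr (r = 0.99), AC149090.1 and Srrm2, and Miat most like Meg3 (0.98). Snhg11 and Kcnq1ot1 were each other's nearest gene (0.98), and Kcnq1ot1 was also the nearest of Malat1 (0.96), followed by Pnn and Pnisr. Mirg was most like Snhg11 (0.97), ahead of Lncpint and D430042O09Rik, and Neat1 most like Ccnl2 (0.96) and Snrnp70. Gm26870 stood apart, with a highest value of 0.81 for Gm42418, then Ahnak and Srrt. The profiles of a mouse share its library, and these values carry no test.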

How the data were processed

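Stellate ganglia of 8 samples were profiled by droplet single-cell RNA sequencing. The submitters' processing notes name Cell Ranger 2.1.1 and mm10 (GRCm38). By the study's methods the authors retained cells holding over 500 but under 6000 genes, under 20000 UMIs and less than 15% mitochondrial RNA. No doublet removal was named, and none was done here. What the authors deposited is, for each neuron they had typed, the natural log of 1 added to its UMIs per 10000. Dividing by the smallest value of each neuron gave whole UMIs for 100% of values above 0 (within 0.01).

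The members and gene lists were chosen with earlier results of these data known. Neurons under the 3 unmatched mouse names entered only pooled values. UMIs per 10000 were averaged over each mouse's deeper and shallower (or high and low mitochondrial) neurons, split within subtype. Genes reaching 0.5 in 5 or more of the 10 profiles were tested by limma 3.58.1 (R 4.3.3) on log2(mean + 0.1), two-sided, blocking on the mouse, with p-values adjusted over all genes by the Benjamini-Hochberg method. Differences on this scale understate changes of low genes. Both sets of a mouse come from the same animal, and their deviations correlated by 0.169 to 0.583 in each mouse. The fit was tested on simulated data.

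Levels by subtype and correlations have no test. A limma p-value rests on the spread of a gene between 5 mice, drawn towards the spread of other genes of similar level. It can thus be smaller than the gene's own spread between mice would give. The sign-flip p-values use the 5 mice alone. The limit beside a share of 0 is that of 3 neurons, for counting error only. Named were all members, the 3 genes most like each, the 3 genes of each list with the smallest p by depth, and Srrm2, Nono, Sfpq, Kcnq1, Cdkn1c, Dlk1, Rtl1 and Th where a result turns on them. Other genes (Dbh, Snap25, Dio3, and repeat genes looked up after the values of Gm26870 were seen) were named outside that rule or as markers. Alternatives were another pseudocount, no filter, no block, each mouse left out, other totals, summaries, splits and neurons, and thinning to 2000 UMIs. Python 3.11.15, NumPy 2.4.6 and pandas 2.3.3 were used. Sequences are from RefSeq (GRCm38.p6) and GENCODE, in which all 8 measured members had an annotation.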

Additional observations from a re-analysis of the deposited data

Results flagged for a closer look

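The 301 neurons whose mouse names matched no sample stand outside every comparison above, and all 8 RNAs were found in them. Pooled over these neurons, which had a median of 4044 UMIs, Malat1 was at 567 UMIs per 10000, Meg3 at 289, Snhg11 at 81.1, Kcnq1ot1 at 11.1, Miat at 7.29, Neat1 at 4.79 and Mirg at 2.59. In the 1002 matched neurons the pooled means were 632, 318, 70.0, 9.52, 5.40, 3.56 and 1.54. The 25 unmatched NA2 neurons were again low, with Malat1 at 105 and Meg3 at 12.5, against 762 and 282 in 134 NA1a neurons.

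Gm26870 was the exception. It had 5 UMIs in 5 of the 301 neurons (1.66%), a pooled level of 0.029, against 2393 UMIs in 66.2% of the matched neurons, at 6.97. Gm42418 was at 21.8 in the unmatched and 183 in the matched neurons, AY036118 at 1.19 and 7.02, and Gm10800, which holds a stretch of Gm26870 on the other strand, had 0 and 115 UMIs. The matched mice were all of batch 2, so every level of Gm26870 given by mouse comes from 1 batch. The names of the unmatched neurons did not give a batch. There were 8 mouse names for 8 samples, and the samples left without a matched name were all of batch 1. By elimination the unmatched neurons were of batch 1 if each sample gave 1 name. The low Gm26870 in them cannot be told apart from a difference between batches. Gm10800 was looked up after the value of Gm26870 was seen, and the cause was not tested.

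No member's level in NA1a, NA1b, NA1c or NA2 had a mouse far enough from the others to stand out, among 32 groups of 5 mice tested. Whether the differences by depth or mitochondrial share varied between subtypes was tested with an interaction term, an addition made after the data were seen, and no member passed. The smallest adjusted p of a member was 0.147 (limma), for Kcnq1ot1 by mitochondrial share in NA2 against NA1c.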

How the results depend on the processing

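The low level in NA2 against NA1c held for 8 of 8 members in every mouse under all alternatives tried but the median over neurons, where 5 did. No called difference of a member reversed under any alternative run.

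By depth, 20 genes and 3 members passed. Without the replicate block 0 genes passed (79 at an unadjusted p under 0.05) and 0 members did, and without a filter 0 and 0 (1067 at an unadjusted p under 0.05). Leaving out 1 mouse gave 8 to 32 genes and 1 to 3 members. Outer tertiles gave 37 genes, NA1a to NA1c alone 34 and 1 member, no shared barcodes 47 and 1, summed UMIs 1 member, a split on other genes 1 member, NA1a alone 1 and 1, NA1b alone 13 and 1, NA1c and NA2 alone 0 and 0 each (235 and 111 unadjusted), and mean natural log values 2320 and 5, of which 2311 genes were higher and 9 lower around a median of 0.16 over all genes (13 and 7 around 0.01 in the result as reported, 9 and 9 with summed UMIs).

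By mitochondrial share, 196 genes and 5 members passed. Without the replicate block 13 and 0 passed, and without a filter 15 and 1. Leaving out 1 mouse gave 79 to 242 genes and 3 to 5 members. Summed UMIs gave 507 genes, outer tertiles 321, natural log values 659, depth-matched sets 118 and 3 members, NA1a to NA1c alone 130 and 2, another total 3 members, no shared barcodes 3, and NA1a, NA1b, NA1c and NA2 alone 77, 38, 17 and 23 genes with 1, 1, 2 and 0 members. Causes were not tested.

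The 5 members that correlated positively with depth in every mouse became 2 with Pearson coefficients on natural log values and 3 within subtypes. Depth limits Mirg, Neat1 and Miat most, with 7, 15 and 14 UMIs in NA2.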
